A study of Mus musculus with 12 samples.

Results

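The vascular endothelial growth factor (VEGF) ligands Vegfa, Vegfb, Vegfc and Pgf, the receptor Flt1, the coreceptors Nrp1 and Nrp2, and the clotting glycoprotein gene Vwf were followed across 12 RNA sequencing libraries of BV2 cells. The 8 genes were found by their symbols among 55487 gene IDs of the count table. BV2 is an immortalised mouse microglial line. The 4 groups held 3 libraries each: high glucose medium with CD200Fc at 50 ng/mL (HG+CD200Fc), high glucose medium alone (HG), normal glucose medium with CD200Fc at 50 ng/mL (NG+CD200Fc), and normal glucose medium alone (NG). CD200Fc is the ligand CD200 fused to an immunoglobulin Fc tail; its receptor, CD200R1, restrains myeloid cells. The labels name the BV2 line as the source, whereas their treatment protocol is about cells sorted for GFP from digested retinas of mice. Glucose concentrations and treatment times were not stated in the labels, and no group was an Fc or an osmotic control. Whether replicate libraries come from separate cultures is also not stated, so the p-values describe only library-to-library spread, possibly technical.

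VEGF ligands are secreted dimers that act on receptor tyrosine kinases. Vegfa binds both Flt1 (VEGFR1) and Kdr (VEGFR2), Vegfb and Pgf bind Flt1, and Vegfc binds Flt4 (VEGFR3), the receptor of lymphatic endothelium. Flt1 is the VEGF receptor of monocytes and macrophages and is also made as a soluble splice form that captures ligand, which a count per gene cannot tell from the membrane form. Nrp1 and Nrp2 are transmembrane coreceptors shared by VEGF ligands and class 3 semaphorins. In retina, Vegfa made under low oxygen drives vessel growth and leakage. Vwf, made chiefly by endothelium and megakaryocytes and stored in endothelial Weibel-Palade bodies, tethers platelets and carries clotting factor VIII.

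The windows around the transcript starts of Flt1 and Vegfa are shown because these are the receptor and the ligand whose levels moved in opposite directions in the libraries. They are RefSeq sequences of build GRCm38.p6, 300 bases long, from 250 before to 50 after the start, written on the gene's own minus strand. Capitals mark motif matches, which read as the reverse complement where the match is on the other strand. Flt1 is at chr5:147561604-147726011, with its window at chr5:147725962-147726261, and Vegfa is at chr17:46016993-46032369, with its first window at chr17:46032328-46032627.
Flt1: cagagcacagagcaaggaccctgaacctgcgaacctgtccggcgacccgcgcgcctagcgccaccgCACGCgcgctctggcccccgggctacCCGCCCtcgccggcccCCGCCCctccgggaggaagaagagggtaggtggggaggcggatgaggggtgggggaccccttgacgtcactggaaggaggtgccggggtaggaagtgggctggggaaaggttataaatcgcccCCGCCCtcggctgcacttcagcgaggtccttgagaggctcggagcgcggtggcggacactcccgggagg
Vegfa: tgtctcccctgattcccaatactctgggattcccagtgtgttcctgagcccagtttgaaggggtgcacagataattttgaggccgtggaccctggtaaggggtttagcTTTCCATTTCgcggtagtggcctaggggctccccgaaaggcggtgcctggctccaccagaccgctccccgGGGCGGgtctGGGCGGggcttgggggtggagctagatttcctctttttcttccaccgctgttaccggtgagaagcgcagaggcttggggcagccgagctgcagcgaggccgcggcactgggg
The Flt1 window held 3 matches to the GC box GGGCGG, at -158, -142 and -19 from the start, and 1 match to GCGTG at -184, all on the other strand. In the Vegfa window stood 2 GC boxes at -72 and -62, on the gene's strand, and 1 match to the interferon stimulated response element (GAAA, any pair of bases, GAAA) at -142 on the other strand. A second annotated Vegfa start had its window inside the gene at chr17:46025114-46025413. That window held 1 match to ACGTG at -211, 1 to GCGTG at -218 and 1 GC box at -158. ACGTG and GCGTG are the A and G forms of the core of the hypoxia response element. The G form also matched in windows of Vegfb, Pgf, Nrp1 and Nrp2. Matches were searched on both strands, also for the E-box CACGTG, which contains ACGTG, and for the STAT element TTCCNGGAA. Neither of these was found in the windows of the 7 members with an entry. Among 32851 windows of the same length, 35.7% held GGGCGG, 32.4% GCGTG, 19.6% ACGTG, 7.15% CACGTG, 3.44% the interferon stimulated response element and 1.15% TTCCNGGAA. GC boxes were thus a common feature, found in the first window of each of the 7 members.

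**Figure D1:**
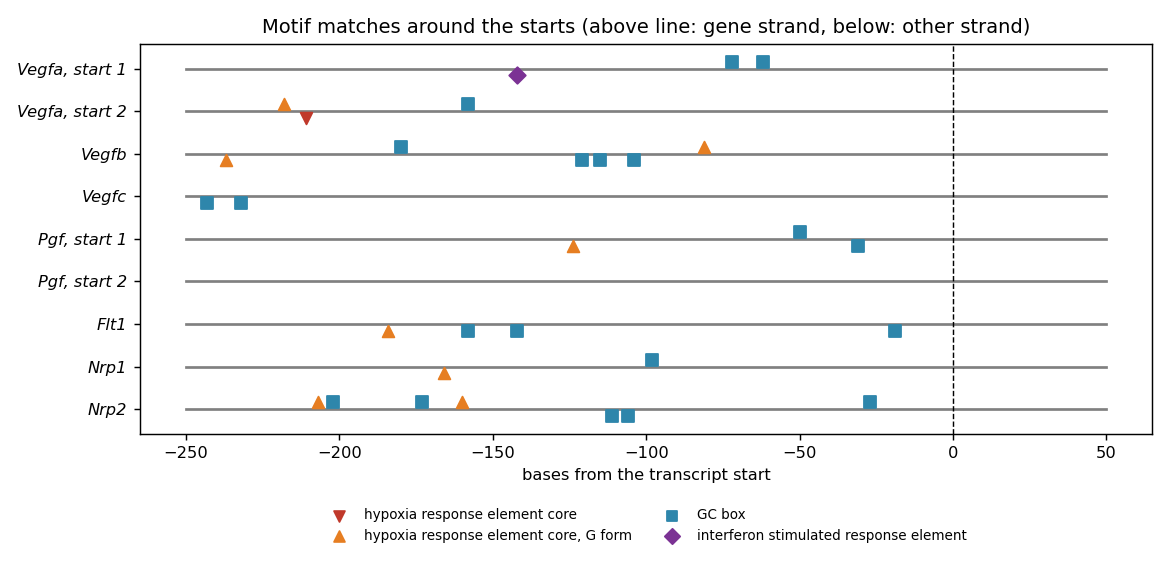
Motif matches in the RefSeq windows of 7 members, by distance in bases from the transcript start (dashed line at 0). Marks above a line are on the gene's strand and marks below it on the other strand. GC boxes lie in each window except the second of Pgf. The ACGTG form of the hypoxia response element core appears only at the second Vegfa start. Its GCGTG form appears in a window of each member drawn except Vegfc.

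Totals ran from 21454087 to 31905649 counts per library. In HG replicate 2, nuclear ribosomal RNA genes took 1.49% of the counts, and at most 0.119% in any other library. Of 20 macrophage and microglia markers, 19 had a mean of at least 1 CPM (counts per 1e6 of the scaled library total), led by Lyz2 and Cd68. They summed to 7276 to 7641 CPM in HG+CD200Fc, 8782 to 10570 CPM in HG, 7445 to 8150 CPM in NG+CD200Fc and 8217 to 8674 CPM in NG. The microglial factor Sall1 had 1 count in all 12 libraries. The defining retinal markers Crx, Nrl, Snap25, Aqp4 and Pou4f2 had 0 to 7 counts in all, and the 13 retinal markers summed to at most 46.7 CPM in a library, most of it Pde6b. In bulk RNA, a change in the number of cells that express a gene and a change in RNA per cell cannot be told apart.

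Per exon length, the coreceptor Nrp2 was the most abundant member and Vegfb the most abundant ligand. In CPM, not divided by length, Vegfa was above Vegfb (70.2 against 49.6 CPM on average). As CPM per kb of exon, averaged over the 12 libraries, Nrp2 was at 87.1 (range 79.4 to 95.2), above 97.3% of 19147 tested genes with a known length. Vegfb averaged 30.9 (27.0 to 34.5), Flt1 17.4 (11.7 to 23.6), Vegfa 16.4 (14.0 to 20.8), Vwf 10.9 (8.48 to 14.8) and Nrp1 7.77 (6.37 to 8.88). The ranges of neighbouring genes from Flt1 to Nrp1 overlap, and those of Nrp2, Vegfb and Pgf stand clear of the others. Pgf, at 0.190 (0.0316 to 0.535), lay above 6.83% of tested genes. Vegfc had 0 counts in each of the 12 libraries, which allows at most 0.0940 to 0.140 CPM per library, the level of 3 counts. Vegfd, the other ligand of Flt4, also had 0 counts. Of the other VEGF receptors, Kdr averaged 0.694 (0.530 to 0.901) and Flt4 0.194 (0.0855 to 0.266) CPM per kb, both below the lowest Flt1 value. The VEGF receptor message of these libraries was therefore mostly Flt1.

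**Figure D2:**
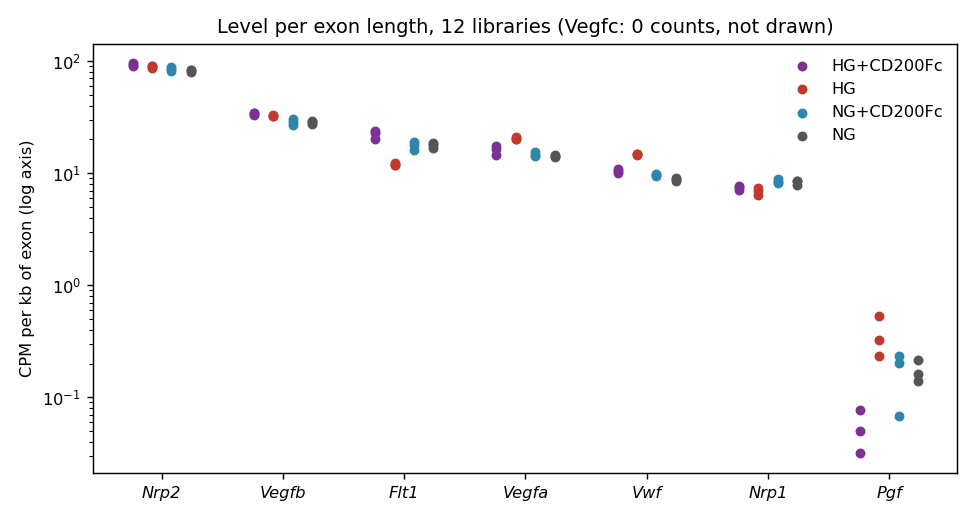
Level of each member in CPM per kb of exon (log axis), 1 point per library and 4 groups per gene. Nrp2 lies between 79.4 and 95.2 and Pgf between 0.0316 and 0.535, with the other genes in between. Vegfc had 0 counts and is not drawn.

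Of the members, Flt1 had the smallest p between high glucose with and without CD200Fc. It had 275, 319 and 308 CPM in HG+CD200Fc, 161, 158.5 and 167 CPM in HG, 241, 254 and 216 CPM in NG+CD200Fc, and 251, 228 and 239.8 CPM in NG. All 3 HG libraries lay below every other library, all 3 HG+CD200Fc libraries lay above, and the NG+CD200Fc and NG libraries overlapped between them. The means were 300.5 ± 22.9 CPM in HG+CD200Fc, 162 ± 4.49 CPM in HG, 237 ± 19.4 CPM in NG+CD200Fc and 239.5 ± 11.3 CPM in NG (SD, n = 3 each).

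Vwf was highest in HG, where Flt1 was lowest. Its values were 160.1, 176 and 168 CPM in HG+CD200Fc, 237.5, 238 and 235 CPM in HG, 154, 158.5 and 151 CPM in NG+CD200Fc, and 136, 143.5 and 146 CPM in NG. HG stood above the other 9 libraries, with a spread of 1.49 CPM (SD, n = 3) around 237 CPM. The other groups lay in the order HG+CD200Fc, NG+CD200Fc and NG with no overlap, at means of 168 ± 7.82, 155 ± 3.63 and 142 ± 4.94 CPM (SD, n = 3 each).

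Vegfa, the main angiogenic ligand, had 70.0, 74.2 and 62.15 CPM in HG+CD200Fc, 86.0, 89.2 and 86.7 CPM in HG, 61.55, 66.3 and 61.7 CPM in NG+CD200Fc, and 60.05, 62.8 and 61.3 CPM in NG. HG was highest in every library, and the other 3 groups overlapped. The HG+CD200Fc libraries were spread over more of the scale, at 68.8 ± 6.13 CPM, than the HG libraries at 87.3 ± 1.68 CPM (SD, n = 3 each). Vegfb, a ligand of Flt1 alone among the receptors, had 53.0, 55.3 and 54.8 CPM in HG+CD200Fc, 51.8, 53.5 and 51.7 CPM in HG, 46.1, 48.9 and 43.4 CPM in NG+CD200Fc, and 47.0, 43.9 and 45.8 CPM in NG. It followed glucose: the 6 high glucose libraries lay above the 6 normal glucose libraries, whether or not CD200Fc was present.

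Pgf, placental growth factor, rested on few reads, with 6, 3 and 2 counts in HG+CD200Fc, 20, 41 and 24 in HG, 5, 15 and 22 in NG+CD200Fc, and 11, 16 and 10 in NG. The highest count was that of HG replicate 2, the library rich in ribosomal RNA. The HG+CD200Fc libraries lay below all HG and NG libraries in CPM, and overlapped NG+CD200Fc.

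Among the coreceptors, Nrp1 had 75.2, 73.75 and 68.9 CPM in HG+CD200Fc, 62.3, 67.9 and 71.9 CPM in HG, 79.4, 86.9 and 82.4 CPM in NG+CD200Fc, and 82.6, 83.05 and 77.4 CPM in NG. All high glucose libraries were below all normal glucose libraries. Nrp2 had 1071, 1127 and 1087 CPM in HG+CD200Fc, 1033, 1069 and 1060 CPM in HG, 1007, 1049 and 964.5 CPM in NG+CD200Fc, and 940.5, 986 and 989 CPM in NG. Each high glucose group lay above the normal glucose group with the same CD200Fc treatment, without overlap. How often groups of 3 libraries stand apart in this way among all tested genes was not counted, for any member.

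**Figure D3:**
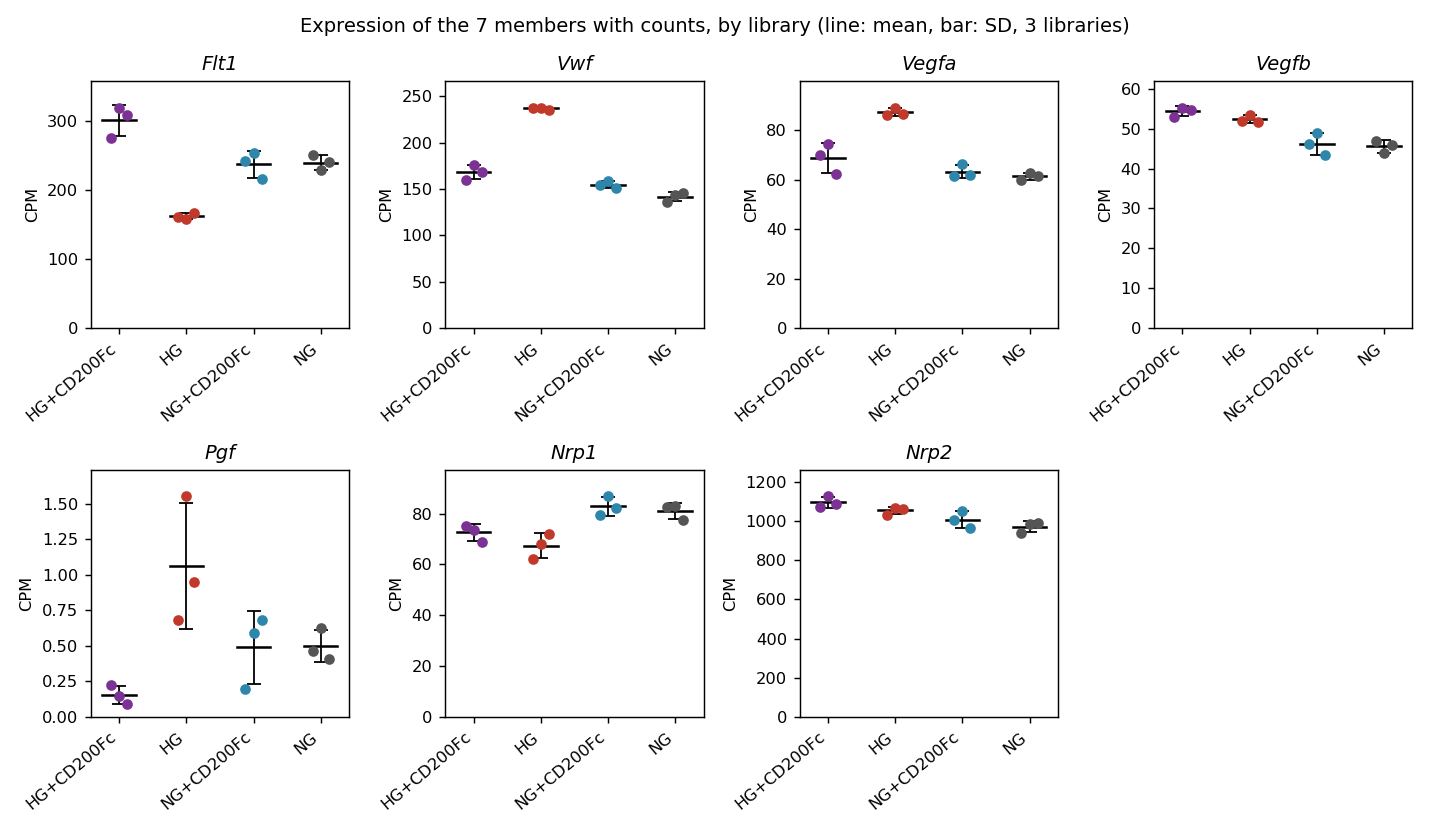
CPM of the 7 members with counts, 1 point per library, with the mean (line) and SD (bar) of the 3 libraries of each group, from HG+CD200Fc at the left to NG at the right. In HG, Flt1 sits lowest at 162 CPM and Vwf and Vegfa highest at 237 and 87.3 CPM. With CD200Fc these values lie at 300.5, 168 and 68.8 CPM.

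Members of each role differed between high glucose and normal glucose medium. In HG relative to NG, Vegfa rose by 0.51 ± 0.06 on the log2 scale (SE; adjusted p = 1.09e-06, edgeR's quasi-likelihood test with Benjamini-Hochberg adjustment, as for every adjusted p here). Vwf rose by 0.74 ± 0.05 (adjusted p = 6.37e-11), and ranked 25 of 19182 tested genes by p. The receptor Flt1 fell by 0.56 ± 0.06 (adjusted p = 1.97e-07) and the coreceptor Nrp1 fell by 0.27 ± 0.06 (adjusted p = 0.0025). The messages of Vegfa and its receptor Flt1 thus moved in opposite directions. The receptors Flt4 (0.78, adjusted p = 0.0674) and Kdr (0.37, adjusted p = 0.0916) had positive values that did not pass. Vegfb rose by 0.20 ± 0.06 (adjusted p = 0.0225), and this call was lost when any 1 of the 6 libraries compared was left out (adjusted p = 0.0551 to 0.0932), when no filter was used (0.0689), and when a trend with exon length and GC content was removed (0.15, adjusted p = 0.0655). Nrp2 did not pass at 0.12 ± 0.05 (adjusted p = 0.0795, 95% interval 0.02 to 0.22), and the call turned on the setting. It passed with limma voom (adjusted p = 0.00962), upper quartile scaling (0.0336) and a stricter filter (0.0395), and was 0.01 (0.842) with the trend removed. Pgf did not pass at 1.07 ± 0.51 (adjusted p = 0.128). Without HG replicate 2 the Pgf value was 0.69 (adjusted p = 0.491). In all, 5 of the 7 tested members passed, 3 higher and 2 lower, where 24.6% of all tested genes passed (11.7% higher and 12.9% lower).

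With CD200Fc in high glucose, Flt1, Vwf and Vegfa moved the other way. In HG+CD200Fc relative to HG, Flt1 rose by 0.89 ± 0.06 (adjusted p = 1.15e-10), the 11th smallest p of all tested genes. Vwf fell by 0.50 ± 0.05 (adjusted p = 1.06e-07) and Vegfa fell by 0.34 ± 0.06 (adjusted p = 0.000223). Pgf fell by 2.72 ± 0.60 (adjusted p = 0.00153). From its summed counts, 11 in HG+CD200Fc and 85 in HG, the Pgf ratio was 0.147 with an exact 95% interval of 0.0709 to 0.277, which covers counting error only. Vegfb (0.05, 95% interval -0.08 to 0.18), Nrp1 (0.11, -0.02 to 0.24) and Nrp2 (0.06, -0.04 to 0.15) did not pass, with adjusted p of 0.648, 0.276 and 0.512. Members that passed numbered 4 of 7, 1 higher and 3 lower, beside 17.8% of all tested genes (9.46% higher and 8.3% lower). This comparison and that of HG with NG share the HG libraries, so their opposite signs are not independent of each other.

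The difference between the CD200Fc effect in high glucose and that in normal glucose was tested as an interaction. It passed for Flt1 at 0.91 ± 0.09 (adjusted p = 1.75e-07), Vwf at -0.62 ± 0.07 (adjusted p = 2.66e-06), Vegfa at -0.385 ± 0.09 (adjusted p = 0.00696) and Pgf at -2.70 ± 0.80 (adjusted p = 0.0376). Those are 4 of 7 members, where 7.2% of all tested genes passed (3.62% with a positive and 3.58% with a negative value). The Pgf interaction did not pass without HG replicate 2 (-2.32, adjusted p = 0.133), or without any 1 of 7 other libraries. With limma voom it did not pass either (-2.10, adjusted p = 0.118), and DESeq2 gave it no adjusted p. For Vegfb, Nrp1 and Nrp2 the interaction was 0.04, 0.08 and 0.00, with 95% intervals of -0.15 to 0.22, -0.11 to 0.26 and -0.14 to 0.14.

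In normal glucose no member passed between NG+CD200Fc and NG, and neither did any of the 19182 genes (0% of those tested). At an unadjusted p under 0.05 there were 1147 genes, or 5.98% of those tested. DESeq2 called 0 genes and limma voom 1. Without HG replicate 1, a library outside the comparison that shares its spread estimate, 8 genes passed. Flt1 differed by -0.02 (95% interval -0.14 to 0.11) and Vegfa by 0.04 (-0.09 to 0.17). Vwf had the smallest p of the members, at 0.13 ± 0.05 (95% interval 0.02 to 0.23, adjusted p = 0.816).

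With CD200Fc present in both media, the glucose difference of Flt1 had the opposite sign. In HG+CD200Fc relative to NG+CD200Fc, Flt1 rose by 0.34 ± 0.06 (adjusted p = 0.00232). Vegfb rose by 0.24 ± 0.06 (adjusted p = 0.0219), and lost its call without any 1 of HG+CD200Fc replicates 2 and 3 and NG+CD200Fc replicates 1 and 3 (adjusted p = 0.0807 to 0.163). After removal of the trend with exon length and GC content, Vegfb was at 0.11 (adjusted p = 0.318). Vwf and Vegfa, both higher in HG than in NG, were at 0.12 each here, with adjusted p of 0.164 and 0.245. Their 95% intervals were 0.01 to 0.23 and -0.01 to 0.25. Nrp1 was at -0.19 (adjusted p = 0.06) and Nrp2 at 0.12 (adjusted p = 0.121), and neither passed. Both passed with DESeq2 (adjusted p = 0.0442 for Nrp1 and 0.0433 for Nrp2) and with limma voom (0.0423 and 0.0199). Of the 7 members 2 passed, both higher, beside 8.3% of all tested genes (4.65% higher and 3.65% lower). That background of 1593 genes was 277 without HG+CD200Fc replicate 2, 646 without HG+CD200Fc replicate 3, 665 without NG+CD200Fc replicate 1 and 344 without NG+CD200Fc replicate 3.

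Set against untreated normal glucose cells, the cells given both high glucose and CD200Fc had 4 members higher and 0 lower, beside 20.3% of genes passing (9.56% higher and 10.8% lower). In HG+CD200Fc relative to NG, Flt1 rose by 0.33 (adjusted p = 0.000548), Vwf by 0.245 (adjusted p = 0.00164), Vegfb by 0.25 (adjusted p = 0.00587) and Nrp2 by 0.17 (adjusted p = 0.0123). Vegfa at 0.16 (adjusted p = 0.0695), Nrp1 at -0.16 (adjusted p = 0.0791) and Pgf at -1.64 (adjusted p = 0.0652) did not pass. Vegfa and Nrp1 each passed under 5 alternatives in the same directions, among them DESeq2 for Vegfa (adjusted p = 0.0497) and limma voom for Nrp1 (0.0458), so the count of 0 lower depends on the setting. The Vwf value turned to -0.03 (adjusted p = 0.761) when a trend with exon length and GC content was removed, and Vegfb and Nrp2 then did not pass. Nrp2 also missed without HG+CD200Fc replicate 2 or NG replicate 1. The background of 3903 genes was 2349 and 2217 without those libraries.

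**Figure D4:**
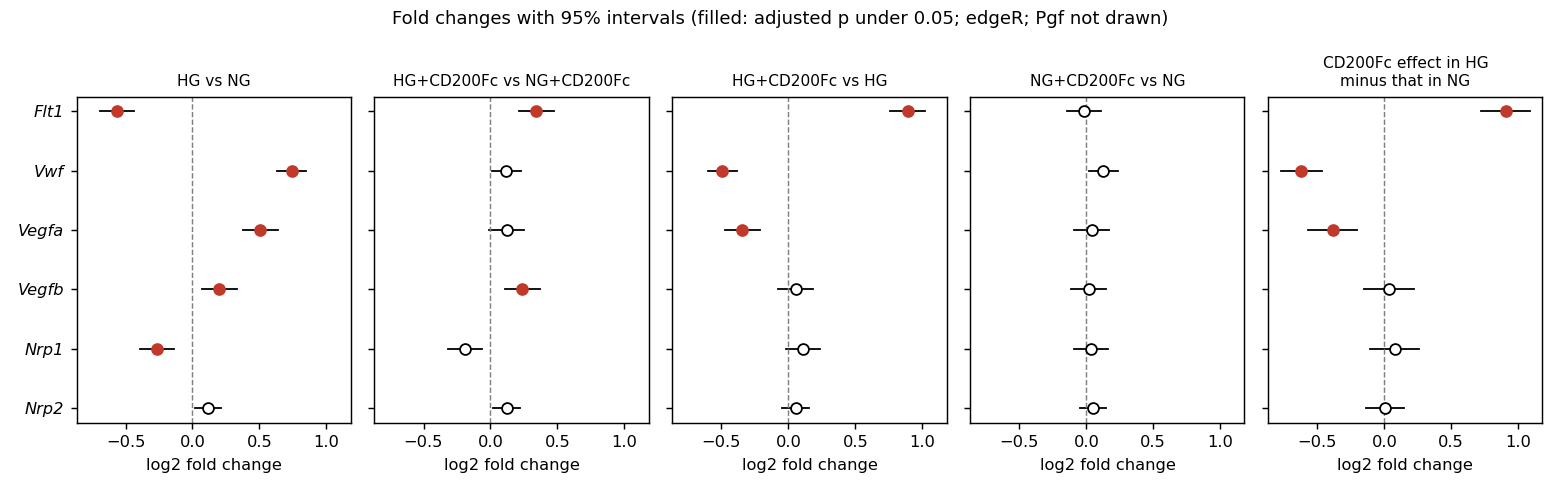
Log2 fold changes of 6 members with 95% intervals in 4 comparisons, and the difference between the CD200Fc effects in the last panel. Filled points passed at an adjusted p under 0.05. Flt1 is at -0.56 in the first panel and at 0.89 in the third, Vwf and Vegfa take the opposite signs, and no point is filled between NG+CD200Fc and NG. Pgf, with wider intervals, is not drawn.

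In the authors' deposited table, which holds 6 of the members, Flt1 has a log2 fold change of 0.89 (false discovery rate 1.44e-25) for HG+CD200Fc against HG and -0.55 (3.03e-10) for HG against NG. For Vwf the authors' deposited table gives -0.50 (3.73e-12) and 0.75 (1.72e-27). Nrp2 in HG+CD200Fc against NG has a false discovery rate of 0.0649 in the authors' deposited table, short of the threshold it passed here.

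The balance of receptor to ligand was read within each library as a ratio of CPM per kb, described without a test. Flt1 over Vegfa was 1.39 ± 0.16 in HG+CD200Fc, 0.59 ± 0.02 in HG, 1.19 ± 0.07 in NG+CD200Fc and 1.24 ± 0.09 in NG (SD, n = 3 each). Per kb of exon, Flt1 was thus below Vegfa in HG and above it in the other 3 groups. In CPM, without division by length, Flt1 was above Vegfa in HG too (162 against 87.3 CPM). The lengths pool the exons of all annotated transcripts (13.504 kb for Flt1 and 4.285 kb for Vegfa). The ratios therefore compare the groups and do not settle which message was more abundant. Vegfa over Vegfb was 0.474 ± 0.043 in HG+CD200Fc, 0.625 ± 0.004 in HG, 0.514 ± 0.017 in NG+CD200Fc and 0.505 ± 0.029 in NG. Vegfb thus exceeded Vegfa per kb in each group, whereas in CPM Vegfa was the higher in every library. Nrp2 over Nrp1 was 12.5 ± 0.65 in HG+CD200Fc, 12.96 ± 0.76 in HG, 10.04 ± 0.41 in NG+CD200Fc and 9.93 ± 0.59 in NG. The coreceptor ratio followed glucose and showed no shift with CD200Fc beyond the spread.

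**Figure D5:**
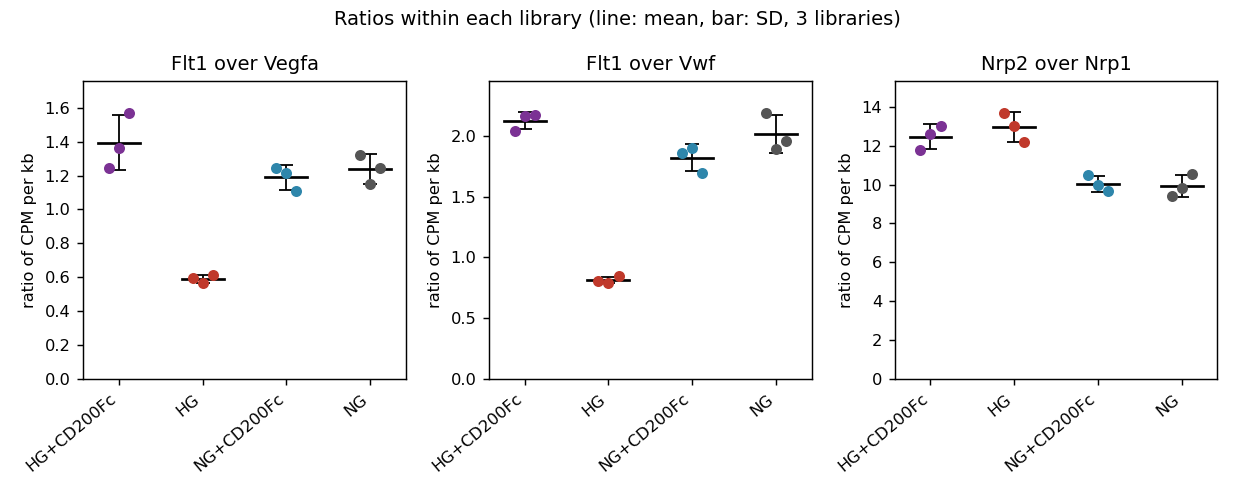
Ratios of CPM per kb within each library, 1 point per library with the mean (line) and SD (bar) of 3. Flt1 over Vegfa is 0.59 in HG and 1.19 to 1.39 in the other groups, and Nrp2 over Nrp1 is higher in both high glucose groups.

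Other genes of the pathway moved in both directions. Of 9 tested VEGF ligands, receptors and coreceptors beyond the members, 2 rose and 4 fell in HG relative to NG (list median -0.11, against 0.02 over all tested genes). Of all tested genes, 11.7% rose and 12.9% fell in this comparison, and 9.46% rose and 8.3% fell in HG+CD200Fc relative to HG. Itgav, the alpha V integrin subunit, fell by 0.44 (adjusted p = 4e-06), and the heparan sulphate proteoglycans Sdc2 and Sdc4 fell by 0.44 and 0.28. Itgb3, which pairs with Itgav, rose by 2.03 ± 0.45 (adjusted p = 0.00143) at 1.46 CPM in HG and 0.356 CPM in NG. In HG+CD200Fc relative to HG, 1 of the 9 rose and 1 fell (median -0.04, against -0.02 over all tested genes): Itgav rose by 0.45 and Itgb3 fell by 1.46. Kdr did not pass in either comparison, at 0.37 (adjusted p = 0.0916) and -0.30 (adjusted p = 0.215).

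Of 38 tested genes of VEGF receptor signalling, 4 rose and 8 fell in HG relative to NG (median 0.03), and 15 rose and 5 fell in HG+CD200Fc relative to HG (median 0.12). Over all tested genes, 11.7% rose and 12.9% fell in the glucose comparison, and 9.46% rose and 8.3% fell in the CD200Fc comparison. Prkcb, a protein kinase C, rose by 0.60 in HG and fell by 0.39 with CD200Fc in HG. The kinases Src (0.54 and -0.27) and Mapk3 (0.30 and -0.42) passed in the same directions. Akt1 (-0.26 and 0.36) and the small GTPase Hras (-0.40 and 0.25) passed with opposite signs to these. The transcription factor gene Nfatc1 rose by 0.45 with CD200Fc in HG (adjusted p = 0.000108).

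Regulators of Vegfa were mixed, with 3 of 15 higher and 4 lower in HG relative to NG (median -0.06), and 5 higher and 1 lower in HG+CD200Fc relative to HG (median 0.09). Of all tested genes, 11.7% were higher and 12.9% lower in the glucose comparison, and 9.46% higher and 8.3% lower in the CD200Fc comparison. Both comparisons share the HG libraries, so opposite signs between them are not independent. Arnt, the partner of the HIF alpha subunits, rose by 0.24 in HG and fell by 0.20 with CD200Fc. The HIF alpha subunit gene Epas1 rose by 0.28 with CD200Fc in HG (adjusted p = 0.00609), as did Egln2, a HIF prolyl hydroxylase, by 0.32 (adjusted p = 0.000634). Zfp36l2, of a family of proteins that destabilise AU-rich messages, fell by 0.37 in HG and rose by 0.66 with CD200Fc (adjusted p = 3.45e-07), and Elavl1, a stabiliser of such messages, fell by 0.28 and rose by 0.20. Among 19 other hypoxia targets 8 rose and 0 fell in HG (median 0.20), while 0 rose and 11 fell with CD200Fc in HG (median -0.27). Ndrg1 (1.27 and -1.32) and Bnip3 (1.17 and -1.71) were among them, with Vegfa in the same directions.

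Of 20 tested partners of VWF, its processing and Weibel-Palade bodies, 7 rose and 1 fell in HG relative to NG (median 0.19), and 2 rose and 6 fell in HG+CD200Fc relative to HG (median -0.04). Of all tested genes 24.6% passed in the glucose comparison (11.7% higher) and 17.8% in the CD200Fc comparison (8.3% lower). P4hb, protein disulphide isomerase, rose by 0.34 and fell by 0.42, and Rab3d, a GTPase of secretory granules, rose by 0.29 and fell by 0.47. Furin, the protease that removes the VWF propeptide, did not pass in HG relative to NG (0.12, adjusted p = 0.21) and rose by 0.35 with CD200Fc in HG. Angpt2, a Weibel-Palade cargo that antagonises Tie2, fell by 0.40 in HG.

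Flt1 and Vwf are also endothelial genes, so 20 endothelial markers were read beside them. Clec14a and Mmrn1 had 0 counts, and Cldn5, Erg, Sox17, Sox18, Robo4, Emcn and Tek each averaged under 0.3 CPM in every group. Averaged over all libraries, 9 of the 20 markers had at least 1 CPM. Tie1 had group means of 20.2 to 28.5 CPM and Icam2 of 10.1 to 11.8 CPM. Kdr was at 5.48 to 7.1 CPM, Egfl7 at 4.1 to 5.81 CPM and Pecam1 at 2.52 to 3.78 CPM. Flt4, Cdh5 and Mmrn2 had group means between 1.04 and 2.11 CPM. The list summed to 192 to 222 CPM in HG+CD200Fc, 183 to 195 CPM in HG, 160 to 183 CPM in NG+CD200Fc and 157 to 168 CPM in NG, most of it Eng (152, 128, 119.8 and 114 CPM on average), a gene that macrophages also express. Of 11 tested endothelial markers, Tie1 (0.49, adjusted p = 0.000149) and Pecam1 (0.57, adjusted p = 0.0488) rose in HG relative to NG. There 24.6% of all tested genes passed (11.7% higher). In HG+CD200Fc relative to HG, Eng rose by 0.25 and Tie1 fell by 0.29, where 9.46% of all tested genes rose and 8.3% fell. Megakaryocyte markers summed to 7.92 to 9.49 CPM in HG+CD200Fc, 8.79 to 11.1 CPM in HG, 8.04 to 11.55 CPM in NG+CD200Fc and 9.92 to 10.7 CPM in NG, with Gp1bb at 0 counts. Of 4 tested megakaryocyte markers, Itga2b rose by 0.91 in HG relative to NG (adjusted p = 0.0293), where 11.7% of all tested genes rose. Pf4 fell by 0.77 in HG+CD200Fc relative to NG (adjusted p = 0.0119), where 10.8% of all tested genes fell. The part of these markers in the Flt1 and Vwf values was not tested.

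The genes whose levels ran closest to each member over the 12 libraries were listed as a description, by Pearson's r of log2 CPM among 8682 genes. All points share the 4 groups and the library scaling. Nearest to Flt1 were Nup50 (0.991), Eif4a3 (0.987) and Atp2b4 (0.983), each with a negative log2 value in HG relative to NG. For Vegfa they were Sdc3 (0.989), Trappc9 (0.984) and Zbtb4 (0.974). For Vwf they were Clcn7 (0.989), the enolase Eno2 (0.986) and Tnfaip2 (0.985). Nrp2 was nearest to Gga1 (0.983), Nrp1 to Zfp961 (0.951), Vegfb to Ptk2b (0.964) and Pgf to Fancg (0.923).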

How the data were processed

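RNA was depleted of ribosomal RNA with RNase H and sequenced as paired ends of 150 bases, per the labels' protocols. Expression was deposited by the authors as unnormalised counts for each gene and library. The submitters' processing notes name STAR, featureCounts, Salmon, edgeR and limma with GRCm38, and strand-specific counting is not given in the sources used here. The authors also deposited a table of log2 fold changes and their p-values for 4 comparisons. Of 55774 lines, 287 repeats with identical counts were dropped. Exon lengths came from GENCODE M21 (99.5% of IDs matched).

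Counts were filtered with filterByExpr (19182 genes, 7 of the 8 members), scaled by TMM and fitted as 4 group means in edgeR 4.0.16 (R 4.3.3, robust quasi-likelihood, coefficient of variation 0.0908). Benjamini-Hochberg adjustment covered all genes of a contrast, at a threshold of 0.05. CPM are counts per 1e6 of the TMM-scaled total. The method was tested on simulated data. Up to 4 genes of each list, those with the smallest p in either comparison involving HG, were eligible to be named, and the 3 nearest genes of each member. The members and lists were chosen with earlier results of these data known. Alternatives were DESeq2 1.42.0, limma voom (3.58.1), other scalings, filters and models, and each library left out. Reads carry no molecular identifiers, so intervals and floors from counts cover counting error only. The only exon overlap of a member was that of Nrp1 with Mir1903, which had 0 counts.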

Additional observations from a re-analysis of the deposited data

Results flagged for a closer look

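The effect of CD200Fc differed between high and normal glucose for 4 of the 7 tested members, where 7.2% of all tested genes passed. This was read from the interaction term of the model (edgeR's quasi-likelihood test, Benjamini-Hochberg adjusted). For Flt1 the difference on the log2 scale was 0.91, with 0.89 between HG+CD200Fc and HG and -0.02 between NG+CD200Fc and NG. For Vwf it was -0.62, with -0.50 in high glucose and 0.13 in normal glucose. For Vegfa it was -0.385, with -0.34 and 0.04. For Pgf it was -2.70, with -2.72 and -0.01, and rested on 175 counts over 12 libraries. The Pgf call was lost in 9 of the 19 alternatives that gave an adjusted p.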

How the results depend on the processing

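Of 22 alternatives (21 for the interaction), all kept the direction and call of Flt1, Vwf and Vegfa in HG vs NG, in HG+CD200Fc vs HG and in the interaction, of Nrp1 in HG vs NG, and of Flt1 against both normal glucose groups. Their log2 values ran from -0.67 to -0.53 for Flt1 and 0.58 to 0.77 for Vwf in HG vs NG, and from 0.84 to 0.95 for Flt1 in HG+CD200Fc vs HG. For other changes the cause was not tested.

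Genes passing in HG+CD200Fc vs NG+CD200Fc (1593) numbered 1060 after a trend with GC content and exon length was removed and 2597 with limma voom, and members (2) 1 and 4, with 4 also for DESeq2; leaving out 1 library gave 277 to 2288 genes and 1 to 3 members. NG+CD200Fc vs NG, at 0, had 21 with no filter, 9 from the groups compared alone, 2 with the replicate block, 1 with limma voom and 0 to 8 with 1 library left out (8 without HG replicate 1). HG+CD200Fc vs NG had 2217 to 4217 genes with 1 library left out, and 2 members with the trend removed, block or not. The interaction had 2333 genes with block and trend removal. The share of higher calls was 34.7% with the trend removed against 47.5% in HG vs NG, 69.3% (upper quartile) and 38.8% (trend) against 56% in HG+CD200Fc vs NG+CD200Fc, 58.6% and 36.4% against 47% in HG+CD200Fc vs NG, and 61.3% (block and trend) against 50.3% in the interaction.

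Signs turned only for values that were not called, except Vwf in HG+CD200Fc vs NG. With the trend removed, without and with the block, Vwf was -0.0262 in that comparison and -0.0796 and -0.0794 in HG+CD200Fc vs NG+CD200Fc, Nrp1 was -0.0006 and -0.0009 in NG+CD200Fc vs NG, Vegfb was -0.0053 in HG+CD200Fc vs HG and -0.0428 in the interaction, and Nrp2 was -0.0036 and -0.0037 in the interaction (-0.0052 with a stricter filter). With 1 library left out, signs also turned in NG+CD200Fc vs NG for Vegfb (-0.0284 to 0.0497), Pgf (-0.3516 to 0.3463), Flt1 (-0.0697 to 0.0368) and Nrp1 (-0.0034 to 0.0604), and in the interaction for Nrp2 (-0.0132 to 0.0431).

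Deviations of same-numbered libraries had r of -0.161 to 0.309 over 18 pairs, 7 over 0.1, of which 5 were between libraries numbered 2. Since not every pair was over 0.1, the numbers were not taken to pair the libraries. With the replicate block, 5258 genes passed in HG vs NG, 2314 in HG+CD200Fc vs NG+CD200Fc, 3842 in HG+CD200Fc vs HG, 4440 in HG+CD200Fc vs NG and 1723 in the interaction. Nrp1 in HG+CD200Fc vs NG+CD200Fc (adjusted p = 0.0399) and Vegfa in HG+CD200Fc vs NG (0.0445) also passed with it. DESeq2 gave Pgf no adjusted p in 4 contrasts and the stricter filter removed it, so its changes rest on 2 to 41 counts per library.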

Other observations

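Other secreted angiogenic factors and the semaphorin side of the neuropilins were also measured. Of 21 tested angiogenic factors 2 rose and 4 fell in HG relative to NG (median -0.065, against 0.02 over all tested genes), and 3 rose and 2 fell in HG+CD200Fc relative to HG (median 0.12, against -0.02). Of all tested genes 24.6% passed in HG vs NG and 17.8% in HG+CD200Fc vs HG. Igf1, insulin-like growth factor, averaged 107.7 CPM in HG+CD200Fc, 88.6 CPM in HG, 132 CPM in NG+CD200Fc and 135 CPM in NG; it fell by 0.60 in HG (adjusted p = 4.1e-09, edgeR) and rose by 0.28 with CD200Fc in HG. Angptl4 fell by 0.42 in HG and rose by 0.47 with CD200Fc, while Angptl6, at 2.59 to 4.91 CPM, rose by 0.92 and fell by 0.84. Of 9 tested neuropilin partners (semaphorins, plexins, and the intracellular partners Gipc1 and Abl1) 3 rose and 1 fell in HG, and 2 rose and 1 fell with CD200Fc in HG. The plexins Plxna1 and Plxnd1 and the kinase Abl1 rose in HG. Plxnd1, the receptor of Sema3e, rose by 0.56 in HG and differed by -0.01 with CD200Fc (adjusted p = 0.966). Sema3e fell by 0.49 in HG and rose by 0.60 with CD200Fc.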
